A study of Rattus norvegicus with 8 samples.

Results

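miR-511 is an miRNA whose gene, Mir511, lies inside Mrc1, the gene of the macrophage mannose receptor, and it was examined here in rat kidney after treatment with aristolochic acid (AA), a plant carcinogen of the kidney. Its members were found by name, as the rows of the table of known rat miRNAs that are named mir-511 with any arm suffix. There were 2 such rows among 620, rno-miR-511 and rno-miR-511*. The miRNA had been chosen by the rise of rno-miR-511* between the control and AA libraries in these same counts, so that its values in that contrast are given as a description, without a test. Of the 2 rows, 1, rno-miR-511*, reached 10 reads in 4 or more of the 8 libraries and entered the comparison, and rno-miR-511 did not.

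The 8 samples were kidneys of male Big Blue rats, transgenic Fisher 344 animals that carry a reporter gene for mutation assays in both groups. The AA group of 4 rats was gavaged with the sodium salt of AA (96% pure, 40% AAI and 56% AAII) at 10 mg/kg in 4 ml/kg, 5 times a week for 12 weeks from 6 weeks of age, and the 4 control rats (CTL) were given 0.9% sodium chloride as often and for as long. All rats were killed 1 day after the last dose, and each library came from 1 rat and from a small piece of kidney. The libraries held 13412373 to 15616670 reads on known miRNAs. One label field names the tissue as liver, but miR-122, the defining miRNA of hepatocytes, made up only 6.71e-05% to 0.0634% of the reads, with the highest share in AA 2. The 8 miRNAs of kidney epithelium that were looked up, such as miR-192 and miR-200b, made up 3.0% to 7.55%. Most of these reads were of miR-192, so that the share mainly follows that miRNA and does not by itself name the tissue. The highest share was in CTL 4, with 920176 reads of miR-192, against 331037 to 437492 in CTL 1 to CTL 3. AA 4 stood apart from the other libraries for rno-miR-511*, and the main values of rno-miR-511* that rest on it are also given without it.

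As background, an intronic miRNA is cut from the transcript of its host gene, and miR-511 is for that reason known from the cells that express Mrc1, mainly tissue macrophages and dendritic cells and also some endothelia. The mannose receptor CD206 is a usual mark of alternatively activated macrophages, which gather in kidneys under repair. A hairpin gives a duplex of a 5p and a 3p strand, of which one is usually kept and loaded as the mature miRNA, and the seed at bases 2 to 8 selects the target mRNAs. Work on macrophages has described the 3p strand of miR-511 as the active one, although older name lists give that strand the star.

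The sequences are shown because the arms were counted separately and carry different seeds. They were taken from the RefSeq annotation of GRCr8, which holds both arms, and the deposited table gives names only, so that the counted sequences may differ from these at their ends. Capitals mark both arms in the hairpin and the seed in the mature sequences, written 5′ to 3′. The hairpin lies on the plus strand at chr17:82187953-82188031, the 5p arm at chr17:82187962-82187982 and the 3p arm at chr17:82188001-82188021. The only annotated gene that spans the hairpin is Mrc1, on the same strand. The star name was read as the 3p arm and the plain name as the 5p arm, by the naming of that time, since the counts carry no sequence to check it.
Mir511 hairpin: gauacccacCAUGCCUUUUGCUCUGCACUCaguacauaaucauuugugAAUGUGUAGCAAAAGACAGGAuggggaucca
rno-miR-511-5p: cAUGCCUUuugcucugcacuc
rno-miR-511-3p: aAUGUGUAgcaaaagacagga
rno-miR-532-5p: cAUGCCUUgaguguaggacugu

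Folded with RNAfold, the hairpin of 79 nt had a predicted minimum free energy of -28 kcal/mol and 26 base pairs, 15 of them between the arms, which are 18 bases apart. Both arms are 21 nt long in RefSeq. Among 693 mature rat miRNAs of the reference, none shared the seed AUGUGUA of the 3p arm. The seed AUGCCUU of the 5p arm was shared with 1 other, rno-miR-532-5p, which is therefore shown beside the arms.

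The reads of miR-511 fell almost entirely on the star arm. In the control group rno-miR-511* had 209, 190, 235 and 123 reads, and rno-miR-511 had 0 in each of the 4 libraries. In the AA group rno-miR-511* had 1728, 1952, 1010 and 14014 reads, while rno-miR-511 had 0, 3, 0 and 3. Both libraries with any read of the 5p arm were thus AA libraries, and they were the ones with the most reads of the 3p arm.

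Over all 8 libraries, 19461 of the 19467 reads on either arm, or 99.97% (95% Wilson interval 99.93% to 99.99%), were on rno-miR-511*. The share was 99.96% ± 0.0739 (SD, n = 4) in the AA group, from 99.85% in AA 2 to 100% in AA 1 and AA 3. In the control group it was 100% in every library, but 0 of 757 reads on the 5p arm allows a share of up to 0.396%. At the summed AA share of 0.0321%, the control group would have had 0.243 reads of the 5p arm. A control share equal to that of the AA group, or lower, would thus most likely give 0 reads. Only control shares above about 0.396% are made unlikely by the 0 reads. Reads that PCR made from 1 molecule are not independent, and these intervals and limits take in counting error alone. For the 5p arm itself, no fold is given. A library with 0 reads allows up to 3 reads, the number that was counted in AA 2 and in AA 4.

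The star arm was the major one in few of the hairpins compared. The star name goes in general to the strand that is mostly degraded. A low star share in most pairs is thus in part fixed by the names. These were 127 hairpins listed as a name and the same name with a star, with at least 100 reads in all. Of them, 9 had over 50% of their reads on the star and 4 had over 90%, and both counts include miR-511. Another 27 hairpins, whose names occur in more than 1 spelling, were left out, and the counts do not cover their arms. miR-511 had the highest share of the 127. It was followed by rno-miR-615 with 99.3%, rno-miR-423 with 97.7% and rno-miR-144 with 94.1%, and the median was 1.44%.

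**Figure D1:**
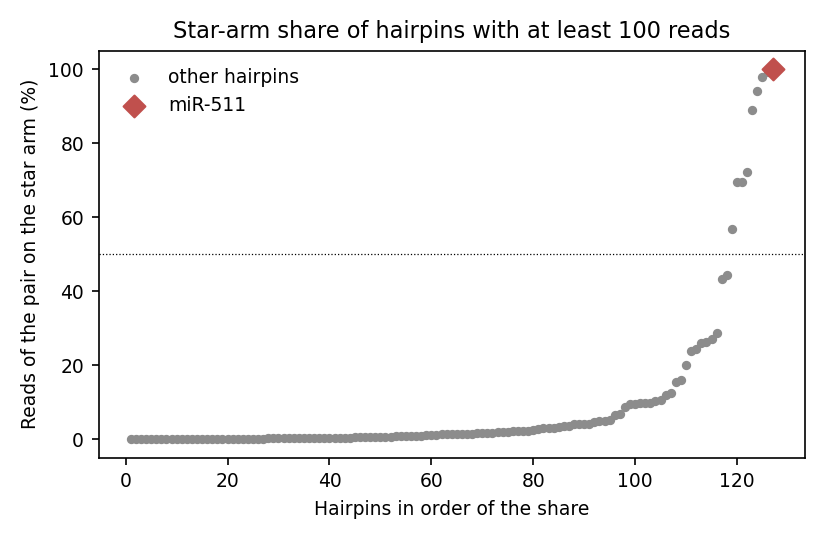
Share of the reads of a hairpin (%) that lay on the star arm, summed over the 8 libraries, for the 127 hairpins with at least 100 reads, in order of the share. The diamond is miR-511, at 99.97%, and the dotted line marks 50%, which 9 hairpins exceed.

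The 5p seed was present in the kidney libraries through the other miRNA that carries it. rno-miR-532-5p, shown above, had 3180 to 5587 reads in the control libraries and 4587 to 6343 in the AA libraries. Its level was 301 ± 36.8 CPM (SD, n = 4) for the controls and 327 ± 31.5 (SD, n = 4) for the AA rats, and the groups overlapped. CPM here are reads scaled to a common library size after TMM normalization. The log2 fold change of 0.12 (standard error 0.16) was not called (adjusted p = 0.633, Benjamini-Hochberg over 367 miRNAs, quasi-likelihood test of edgeR). Beside it the 5p arm of miR-511 had at most 3 reads in a library.

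In the control kidney rno-miR-511* was a minor miRNA. Its level was 15.7, 14.0, 14.6 and 10.0 CPM in CTL 1 to CTL 4, with a mean of 13.6 ± 2.46 (SD, n = 4), and it ranked between 189 and 212 of the 620 miRNAs of a library. CTL 4 was the lowest. Its share of the library's reads, 0.000895% (95% Wilson interval 0.000751% to 0.00107%), lay outside the intervals of the other control libraries, whereas those of CTL 1, CTL 2 and CTL 3 overlapped. The SD of log2 CPM among the control rats, 0.28, was close to the median of all tested miRNAs, 0.30.

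In the AA kidneys rno-miR-511* was at 134, 106, 69.5 and 830 CPM in AA 1 to AA 4. All 4 AA libraries lay above all 4 control libraries, and the lowest AA value was 4.43 times the highest control value. The order from the lowest AA library was AA 3, AA 2, AA 1 and AA 4. AA 1 and AA 2 differ in CPM through their scaling factors, 0.965 and 1.21, while their shares of the total reads, 0.0129% and 0.0128%, had overlapping intervals. AA 3, at 0.00731% (0.00687% to 0.00778%), was lower than both beyond counting error. In rank, rno-miR-511* was at 108, 120 and 128 in AA 1, AA 2 and AA 3, and at 50 in AA 4.

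AA 4 dominated the AA group. It held 74.9% of the group's reads of rno-miR-511* and was 6.22 times as high as AA 1, the next. The mean of the AA group was 285 ± 365 CPM (SD, n = 4), an SD larger than the mean, and without AA 4 it was 103 ± 32.1 (SD, n = 3). The median was 120 CPM in the AA group against 14.3 in the control group, which is 8.39 times as high, while the ratio of the means was 21.0. Without AA 4 the ratio of the means was 7.59, and AA 4 alone was 61.2 times the control mean.

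**Figure D2:**
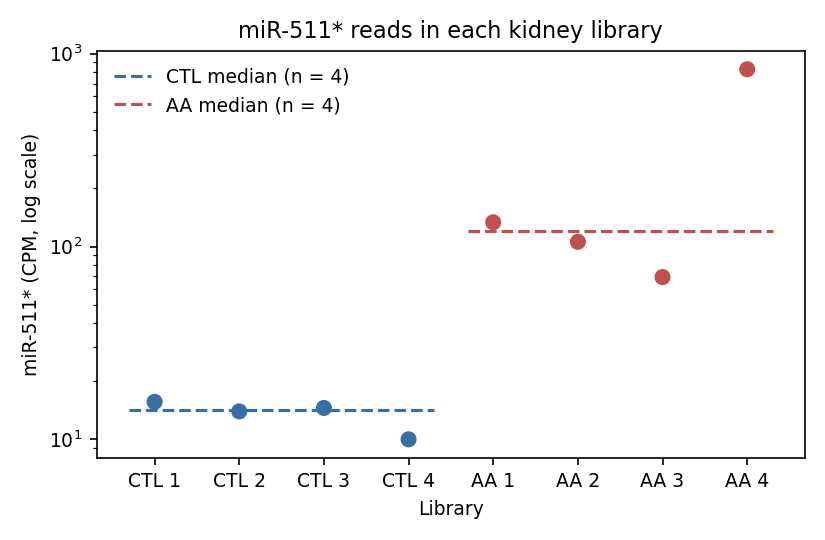
Level of rno-miR-511* (CPM, log scale) in each of the 8 kidney libraries, 4 control and 4 AA, with dashed lines at the group medians. The control libraries lie between 10.0 and 15.7 CPM, AA 1 to AA 3 between 69.5 and 134, and AA 4 at 830.

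On the log2 scale the fit across all miRNAs gave a fold change of 4.39 (standard error 0.78) for rno-miR-511*, the third highest of the 367 miRNAs tested. Without AA 4 it was 2.82, the lowest value with any 1 library left out. The difference between the group means of log2 CPM, which gives AA 4 less weight, was 3.65, and 2.88 without AA 4. The SD of log2 CPM among the 4 AA rats was 1.58, the seventh largest of 367, against a median of 0.37. Without AA 4 it was 0.48, with a rank of 69 and a median of 0.26. For scale, 90% of the tested miRNAs had a log2 fold change between -0.94 and 1.93, and the median was 0.06. In the same fit 38 of the 367 miRNAs (10.4%) were called higher in AA and 22 (5.99%) lower, and in 53 (14.4%) every AA library lay above every control library. rno-miR-511* is among the 38 and the 53, but through the contrast that chose it, and nothing is read from that.

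Other miRNAs of leukocytes were set beside rno-miR-511*, because in RNA from whole tissue a larger number of cells of a type and more RNA per cell cannot be told apart. The list held miR-142-3p and miR-142-5p (the arms of a hairpin of blood-forming cells), miR-223 (myeloid cells), miR-146a and miR-146b (induced by NF-kB signalling), miR-150 and miR-342-3p (mature lymphocytes and other leukocytes) and miR-155 (activated macrophages and lymphocytes). miR-155 had no row of that exact name among the counts and was not analysed here. Of the 7 others, 3 rose and none fell (edgeR, adjusted p-value under 0.05), against 10.4% higher over all tested miRNAs. Their median log2 fold change was 0.58, against 0.06 for all tested miRNAs.

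The 3 that rose were miR-146b, miR-142-3p and miR-223. miR-146b was at 512, 349, 332 and 340 CPM in the control group and at 2676, 1380, 858 and 2502 in the AA group, without overlap (log2 fold change 2.27 ± 0.35 as standard error, edgeR adjusted p = 0.00138). miR-142-3p, which marks cells of the blood-forming lineage, was at 1108, 936, 1010 and 761 CPM in the control group and at 2209, 2656, 1854 and 3875 in the AA group. The groups did not overlap here either (log2 fold change 1.47 ± 0.23 as standard error, edgeR adjusted p = 0.00182). miR-223 was at 39.8, 38.8, 37.5 and 43.7 CPM in the control group and at 82.9, 80.1, 48.8 and 111 in the AA group, again without overlap (log2 fold change 1.02 ± 0.25 as standard error, edgeR adjusted p = 0.0195).

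Without AA 4, miR-142-3p and miR-146b were still called, with log2 fold changes of 1.14 and 1.99. The call of miR-223 was lost without AA 4 (log2 fold change 0.71, adjusted p = 0.0692 from edgeR), and also without AA 1, CTL 1, CTL 2 or CTL 3. The 4 members that were not called were miR-150 (log2 fold change 0.58, adjusted p = 0.0617), miR-142-5p (0.30, 0.559), miR-146a (-0.09, 0.713) and miR-342-3p (-0.25, 0.390), all from the same edgeR fit. For miR-150 the AA libraries, at 77.3 to 105 CPM, lay above the control libraries, at 52.2 to 67.4. In all, 4 of the 7 had every AA library above every control library, against 14.4% over all tested miRNAs.

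**Figure D3:**
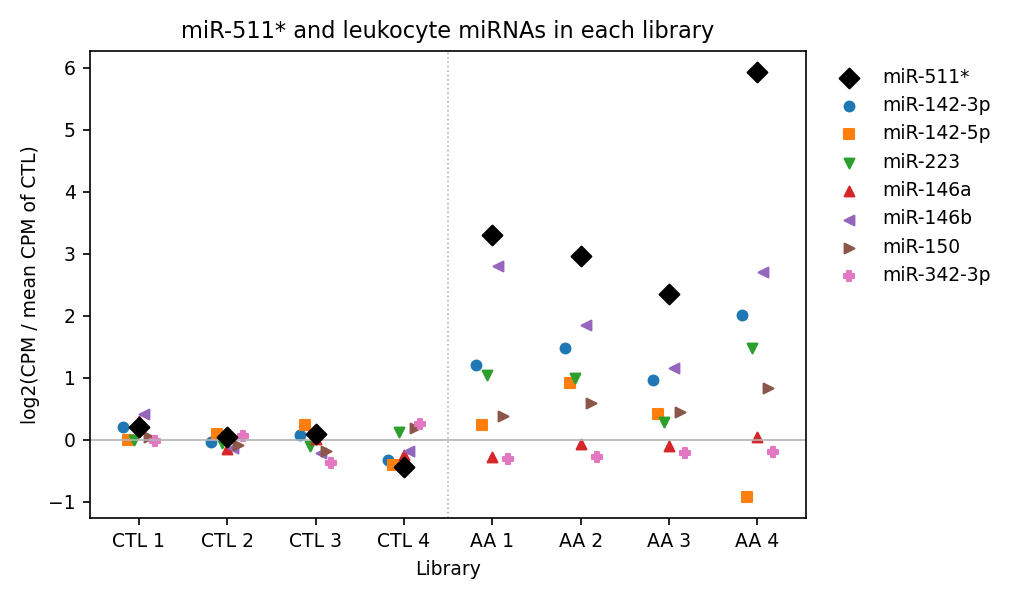
Level of rno-miR-511* and of 7 leukocyte miRNAs in each library, as log2 of the CPM over the mean CPM of the 4 control libraries, with the dotted line between control and AA. rno-miR-511* (diamonds) is the highest in each AA library, and in AA 4 miR-142-5p is below 0 while miR-142-3p is above it.

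rno-miR-511* was also higher in the AA libraries when its reads were set against those of the leukocyte miRNAs. Per 100 reads of miR-142-3p there were 1.41, 1.49, 1.44 and 1.32 reads of rno-miR-511* in the control libraries, a narrow range. In the AA libraries there were 6.05, 3.99, 3.75 and 21.4. The ratio does not depend on the scaling between libraries, and each AA value was above each control value. Per 100 reads of miR-223 the mean was 34.3 ± 7.73 (SD, n = 4) for the controls and 295 ± 301 (SD, n = 4) for the AA rats, with AA 4 at 746 and the other AA libraries at 132 to 161.

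The same held for the other 5 members of the list, with every AA ratio above every control ratio. The difference between the groups in mean log2 ratio was lowest for miR-146b, at 1.5 (0.93 without AA 4), and highest for miR-342-3p, at 3.89 (3.14 without AA 4). For miR-142-3p it was 2.23, and 1.66 without AA 4. These ratios contain the measure that chose rno-miR-511*, whose lowest AA value was 4.43 times its highest control value. An miRNA that changed little would give separate ratios through that choice alone. Nothing is therefore read from the separation, and the ratios were not tested.

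**Figure D4:**
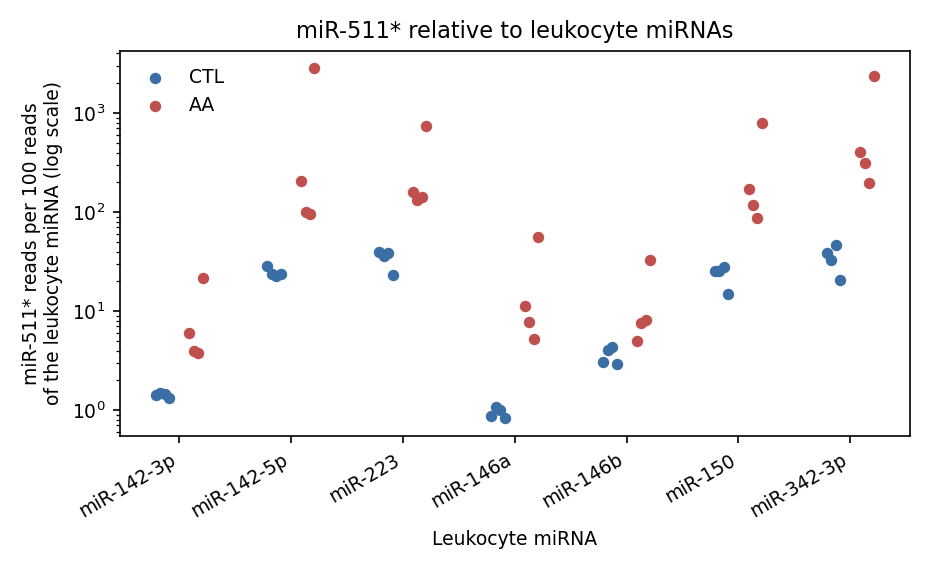
Reads of rno-miR-511* per 100 reads of each of 7 leukocyte miRNAs (log scale), with a point for each library, 4 control and 4 AA. Each AA point lies above the control points of the same miRNA, with AA 4 the highest of them in all 7.

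AA 4 was not high to the same degree in the leukocyte miRNAs. Relative to the mean of AA 1 to AA 3, AA 4 was 8.06 times as high for rno-miR-511*, 1.73 times for miR-142-3p, 1.57 times for miR-223, 1.53 times for miR-146b and 0.361 times for miR-142-5p. Over all 367 tested miRNAs, the log2 difference between AA 4 and the mean of the other AA libraries was 3.06 for rno-miR-511*, the second largest, with a median of 0.03. The red blood cell miRNAs moved the other way in AA 4, where miR-451 was at 153 CPM (AA 1 to AA 3, 367 to 546) and miR-144 at 5.39 CPM (13.1 to 18.0). Their part in the value of rno-miR-511* was not tested.

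The miRNAs of other cells of the sample were given by 3 further lists and the liver marker. Of the 2 red blood cell miRNAs tested, edgeR called 0 in either direction (median log2 fold change -0.61), and 0 at an unadjusted p under 0.05. By the DESeq2 Wald test 0 were called after adjustment and 1, miR-451, had an unadjusted p under 0.05. They took 0.0436% to 0.0739% of the reads in the control libraries and 0.0171% to 0.0684% in the AA libraries. Of 8 epithelial miRNAs, 2 fell, miR-204 (-0.80, adjusted p = 0.0337 from edgeR) and miR-194 (-0.73, adjusted p = 0.0499 from edgeR), and none rose, where 5.99% of all tested miRNAs were lower. The median log2 fold change of the list was -0.31, against 0.06 for all. Both miRNAs were called in 8 of 15 alternative fits. Of 5 stromal miRNAs, 1 rose, miR-199a-3p (0.65, adjusted p = 0.0327 from edgeR), and none fell, a share of a short list that stands beside 10.4% higher over all tested miRNAs. The median of the list was 0.50. miR-199a-3p was called in 6 of the 15, and not without AA 4. miR-122 had a log2 fold change of 2.96 with a standard error of 1.84 and was not called (adjusted p = 0.301 from edgeR). It was at 523 CPM in AA 2 and at 0.696 to 2.96 CPM in the other AA libraries, and without AA 2 its log2 fold change was -3.37. The leukocyte miRNAs took 0.225% to 0.315% of the reads in the control libraries and 0.452% to 0.880% in the AA libraries, with the highest share in AA 4. Most of these reads were of miR-142-3p, miR-146a and miR-146b, with 65415, 25008 and 42233 reads in AA 4, so that the share mainly follows these miRNAs.

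The miRNAs most like rno-miR-511* were taken by Pearson's r of log2 CPM over 366 others, as a description without a p. Over the 8 libraries, where the step between the groups enters the value, they were miR-425 (r = 0.99), miR-872* (0.98), miR-187 (0.98), miR-142-3p (0.98) and miR-21 (0.95). After the group means were removed, they were miR-425 (0.97), miR-450a (0.94), miR-187 (0.93), miR-872* (0.93) and miR-142-3p (0.89). miR-425, miR-872*, miR-187 and miR-142-3p are in both lists. All points share their library and its scaling, and rno-miR-511* in AA 4 is far from the other libraries. Without AA 4, r over the remaining 7 libraries was 0.97, 0.95, 0.95, 0.98 and 0.98 for the same 5 miRNAs in the order given first. With Spearman's rho in place of r, 0 of the 5 over the 8 libraries and 2 of the 5 in the deviations were again among the first 5. The rho of the named miRNAs was still 0.74 to 0.98 over the 8 libraries and 0.62 to 0.95 in the deviations.

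Without AA 4 the likeness of the deviations was 0.80 for miR-425, 0.77 for miR-142-3p and 0.58 for miR-450a, but 0.25 for miR-187 and -0.01 for miR-872*. miR-21, an miRNA that rises in injured kidney, had an r of 0.77 in the deviations and 0.90 without AA 4. The gap of AA 4 differed among them. In AA 4 miR-187 was at 245 CPM and miR-425 at 558 CPM, where AA 1 to AA 3 had 21.3 to 39.0 and 323 to 364. Of the leukocyte list, miR-142-3p ranked 5 of 366 in the deviations and miR-223 ranked 18 (r = 0.79), while miR-142-5p had an r of -0.79, and 0.30 without AA 4.

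**Figure D5:**
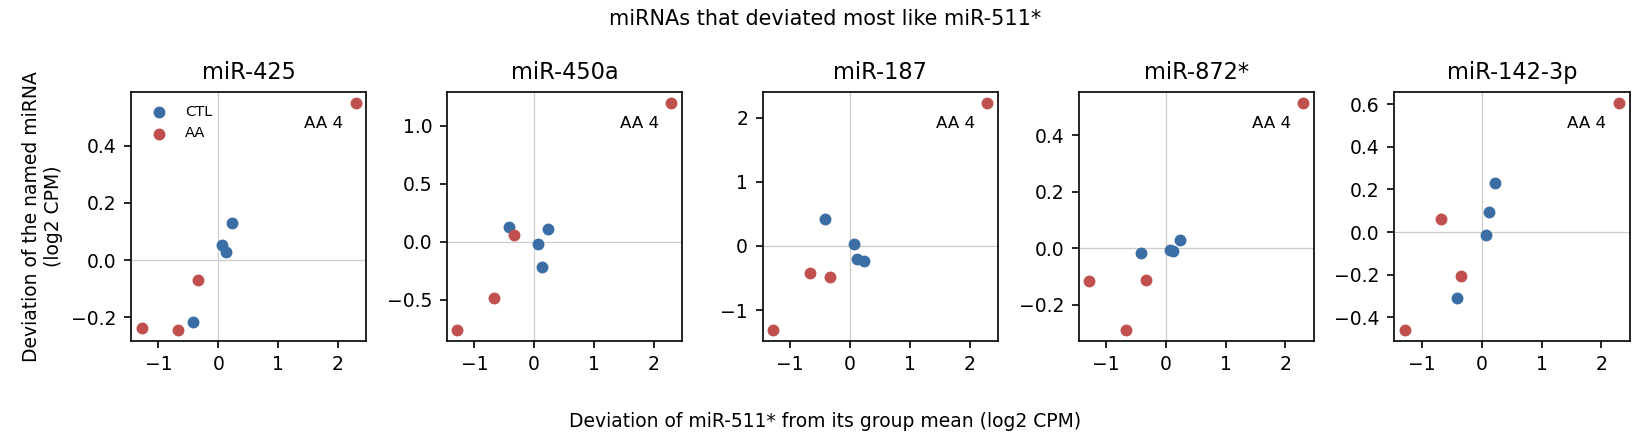
Deviation of log2 CPM from the group mean for rno-miR-511* (horizontal axes) and for the 5 miRNAs with the highest r in these deviations (vertical axes), with a point for each of the 8 libraries. AA 4 is the point at the top right of each panel, and r without it is between -0.01 for miR-872* and 0.80 for miR-425.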

How the data were processed

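Small RNA of 8 kidneys was read on an Illumina Genome Analyzer II. The counts that the authors deposited are whole reads for each known rat miRNA in each library, not normalized, from miRanalyzer and Bowtie with miRBase; short reads were removed and long ones trimmed. Versions of the tools are not given in the sources used here. Groups and numbers came from the sample titles.

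The groups were compared by the quasi-likelihood test of edgeR 4.0.16 (R 4.3.3) after TMM normalization, with Benjamini-Hochberg adjustment and a threshold of 0.05, over the 367 miRNAs that reached 10 reads in 4 or more libraries. The step was also run on simulated counts, drawn with means and dispersions taken from these data. No simulated library was made to stand apart as AA 4 does, so that the run cannot speak for such a library. Standard errors are the log2 fold change over the square root of F. CPM are reads scaled by the TMM library sizes. Likeness used log2 CPM with a prior count of 2. Wilson intervals came from scipy 1.17.1 and the fold from RNAfold 2.7.2. Libraries held 13412373 to 15616670 reads. Each came from a different rat.

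Earlier results of these data were known when the member, the lists and the rules for names were chosen. The miRNAs named are both arms of miR-511, the list members, the 5 most like rno-miR-511* by each measure and those that share a seed with an arm. The lists were leukocyte, red blood cell (miR-144, miR-451, miR-486), epithelium (miR-192, miR-194, miR-204, miR-200a, miR-200b, miR-200c, miR-141, miR-429), stroma (miR-143, miR-145, miR-199a-3p, miR-199a-5p, miR-214) and liver (miR-122). For miR-155 and miR-486 the counts had no row of that exact name, and they were not analysed here. Hairpins named for their star share, and miR-1249, miR-328a and miR-210, were chosen after their values were seen. Left out of the star comparison were 27 hairpins whose names occur in more than 1 spelling (letter case). The alternatives were the Wald test of DESeq2 1.42.0, its size factors, total counts, no filter, 10 reads in all 8 libraries, a block for library numbers, leaving out each library, Spearman's rho and a prior count of 0.5, and, chosen after the data were seen, the 6 libraries numbered 1 to 3.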

Additional observations from a re-analysis of the deposited data

Results flagged for a closer look

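In AA 4, the level of rno-miR-511* was 830 CPM, far from AA 1 to AA 3 with 69.5 to 134. The share of miR-511 reads on the star arm was 99.85% in AA 2 against 99.98% to 100% in the other AA libraries, which rests on 3 reads of the 5p arm. Outside miR-511, miR-146b was at 512 CPM in CTL 1 against 332 to 349 in the other control libraries. Of 20 sets of 4 libraries that were looked at, 3 held such a value. Chance alone would mark about 1 in 20 if the values were normally distributed, which was not checked. The set of rno-miR-511* was also chosen from these data, so that the counts are not compared. The source of these values was not tested.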

How the results depend on the processing

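The log2 fold change of rno-miR-511* was 4.39, and between 2.82 and 4.72 when each library was left out in turn. It was 2.75 in the 6 libraries numbered 1 to 3, and the other settings gave 3.52 to 4.60, with the lowest from the fit with the library number as a block. The number of miRNAs called was 60, and 35 to 51 with a library left out (37 without CTL 1 and 35 without CTL 2). The calls higher in AA were 24 to 33 and those lower in AA 10 to 21 in these fits, with 24 or 25 higher without CTL 2, CTL 3 or AA 1 and 10 to 14 lower without CTL 1, CTL 2 or CTL 4. With total counts 14 were lower, 79.4% of the calls were higher in place of 63.3%, and the median log2 fold change of all tested miRNAs moved from 0.06 to 0.27. With the libraries numbered 1 to 3, 51.9% of the calls were higher. Fewer libraries lower the power of a fit, and the cause of the other shifts was not tested. Of the leukocyte list, 3 miRNAs were called, 2 or 3 with a library left out, and 4 with total counts, the DESeq2 Wald test or the block, where miR-150 was added. miR-142-3p and miR-146b were called in all 15 alternative fits and miR-223 in 10. Of the 5 miRNAs most like rno-miR-511* over the 8 libraries, 0 were shared with Spearman's rho and 2 to 5 with a library left out. Of the 5 in the deviations, 2 were shared with rho and 0 to 4 with a library left out, with 0 without AA 4. The difference in mean CPM of rno-miR-511 was 0.0851, and 0.0537 to 0.113 with a library left out, and the star share of the AA group was 99.94% to 99.99%. CTL and AA titles carry the same numbers, 1 to 4. A fit with a replicate block for these numbers called 78 miRNAs, of which 57 were among the 60. The correlations of same-numbered deviations were 0.05, 0.20, 0.14 and 0.35, and 3 of the 4 control libraries correlated best with the AA library of their own number. The level expected by chance was not computed for these values. The labels tie no rats together, and for that reason the numbers were not taken as pairs. CTL 4 and AA 4 were each the highest of their group for miR-1249, miR-328a and miR-210, while rno-miR-511* was the lowest in CTL 4. A factor shared by libraries of the same number was not tested. Depth limits the 5p arm, at 0 to 3 reads, and no log2 fold change is given for it.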

Other observations

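The arms of miR-142 parted in AA 4. miR-142-3p had 65415 reads there, the most of the 8 libraries, and miR-142-5p had 494, the fewest, although both are cut from the same hairpin. In AA 1 to AA 3 miR-142-5p was at 65.0 to 104 CPM, and in AA 4 it was at 29.3 CPM, below the lowest control library, at 41.8.

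The miRNAs with the largest excess of AA 4 over the mean of AA 1 to AA 3 were miR-1249, rno-miR-511*, miR-187, miR-328a and miR-210, by 3.13, 3.06, 2.96, 2.31 and 1.77 on the log2 scale. For miR-1249, miR-328a and miR-210, an miRNA induced by low oxygen, CTL 4 was also the highest control library, at 18.2, 106 and 112 CPM, against at most 1.25, 24.5 and 29.1 in CTL 1 to CTL 3. rno-miR-511* was the lowest in CTL 4, at 10.0 CPM. miR-187 was the highest there, at 9.04 CPM against 5.77 to 6.92.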
